A study of Homo sapiens with 6 samples.

Results

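The BCL2 family genes described here are 10 genes of the mitochondrial pathway of cell death: BCL2, BCL2L1, MCL1, BAX, BAK1, BID, BIK, BBC3, PMAIP1 and BCL2L11. They were picked out of the count table by gene name, and each has 1 Ensembl identifier among the 48183 gene names of the count table. The genes were read in 6 bulk RNA-seq libraries of human embryonic stem cells, 4 in the naive and 2 in the primed state. The cell line is called H1 in the sample labels and H9 in the text of the study, and all 6 libraries come from derivatives that carry EOS, a GFP reporter driven by the distal enhancer of Oct4 and used to see naive conversion. The question these libraries address is how cells converted to the naive state by different inducers differ from the primed cells they came from.

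The primed libraries are 1 of the EOS line and 1 of the CA-p38 EOS line, both grown on Matrigel in StemFit AK02N medium. The CA-p38 EOS line was made from the EOS line and was sorted for mCherry, and it carries a constitutively active p38 kinase that doxycycline switches on. The naive libraries are AICAR 1 and AICAR 2 (EOS cells, induction to day 14 with AICAR, an activator of the kinase AMPK, which was kept on for a further week at a lower dose), CA-p38 (CA-p38 EOS cells, induction to day 7 with doxycycline, then 12 passages) and VPA (EOS cells, induction to day 9 with valproic acid, an inhibitor of histone deacetylases, then 12 passages). The AICAR libraries come from successive passages, and the sources do not tell which is which. Naive cells were expanded in PXGL, a medium with PD0325901, XAV939, Go6983 and human LIF, and were sorted for CD75 and SUSD2 before RNA was extracted. The labels place them on mitomycin-treated mouse feeder cells. The study also moved naive cells to culture without feeders, and whether the sequenced cells had been moved is not stated. Medium, sorting and state therefore differ together between the groups and cannot be told apart, and AICAR 1, AICAR 2 and VPA share 1 parental library.

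In the mitochondrial pathway, anti-apoptotic proteins (BCL2, the BCL-XL product of BCL2L1, and MCL1) hold the effectors BAX and BAK1 in check. BH3-only proteins (BID, BIK, PUMA from BBC3, NOXA from PMAIP1 and BIM from BCL2L11) relay stress signals by binding the anti-apoptotic proteins, and some of them also activate the effectors directly. Once active, BAX and BAK1 open the outer mitochondrial membrane, cytochrome c leaves and caspases are activated. Human pluripotent stem cells are known to enter this pathway readily after DNA damage or dissociation. Much of the control is on the proteins, which were not measured here.

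Total counts ran from 46823699 to 54277064 per library, so a count of 3, taken as the floor, stood for 0.0553 to 0.0641 CPM, the counts scaled to a common library total. The labelled states were checked with marker lists. The 6 naive markers summed to 1854 to 2155 CPM in naive and 7.67 to 9.88 CPM in primed libraries. The 6 primed markers summed to 39.9 to 50.6 CPM and 2728 to 3305 CPM. SUSD2 led the naive list (668.5 CPM at its highest), and naive cells were sorted on its protein, so its part of this check is not independent. Markers of other cell types moved with the state too. Fibroblast markers summed to 30.8 to 72.8 CPM in naive and 175 to 192 CPM in primed libraries, with 3 of 6 lower in naive cells, and trophectoderm markers to 117 to 133 CPM and 9.47 to 9.76 CPM, with 4 of 6 higher. TFAP2C, a factor also used by naive cells, led the trophectoderm list, and CGA stayed under 1 CPM throughout. Neural markers, led by TUBB3, summed to 156 to 197 CPM in naive and 127 to 146 CPM in primed libraries, with 1 of 6 higher and 2 lower, and NEUROG2 stayed under 1 CPM. Endoderm markers summed to 16.8 to 19.3 CPM and 11.1 to 38.9 CPM, with 1 of 6 higher and 3 lower. The part of these markers in the results on the 10 genes was not tested. In bulk libraries, fewer cells with a transcript and less of it per cell cannot be told apart.

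All 10 genes passed the filter on low counts, and all 10 differed between the naive and the primed libraries in the quasi-likelihood test of edgeR, with p-values adjusted by Benjamini-Hochberg over 26497 genes and a threshold of 0.05. BCL2L1, MCL1, BAX, BAK1, BIK, BBC3 and BCL2L11 (7 genes) were higher in naive cells, and BCL2, BID and PMAIP1 (3 genes) were lower. BCL2 passed the filter only through the primed libraries, where it is high. With 10 counts required in every library, 9 genes were tested, 7 of them higher and 2 lower. The call was common in this comparison: 53.1% of all genes tested passed it, 26% higher and 27% lower in naive cells. For each of the 10 genes the naive and the primed libraries did not overlap, which held for 64.9% of all genes tested. The median log2 fold change of the 10 genes was 1.12, beside 0.11 over all genes tested. Levels below are CPM scaled by TMM, and standard errors (SE) belong to log2 fold changes (naive minus primed).

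**Figure D1:**
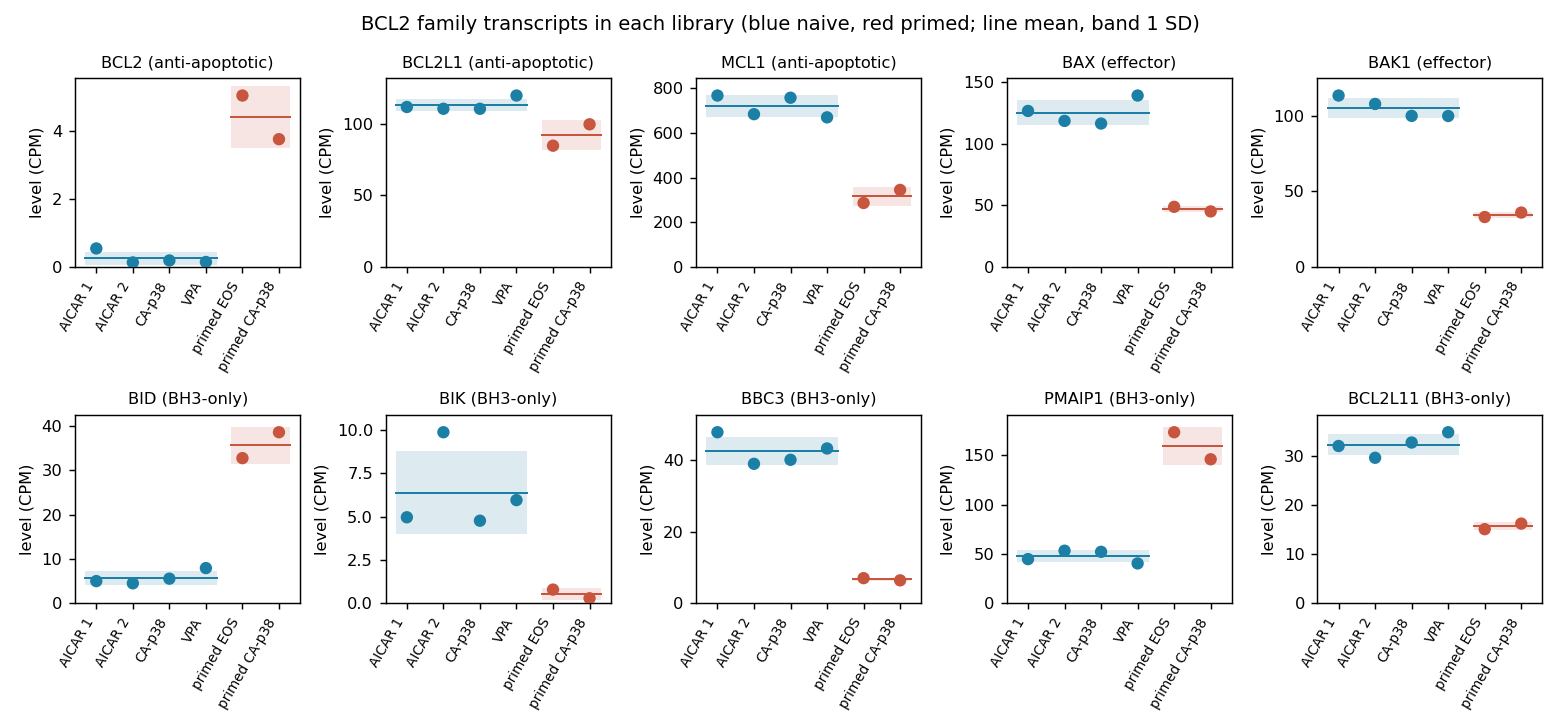
Level of each of the 10 genes (y axis, TMM-scaled CPM, each panel with its own scale from 0) in the 4 naive (blue) and 2 primed (red) libraries, with the group mean as a line and 1 SD as a band. No panel has a naive point among the primed points: BCL2, BID and PMAIP1 sit higher in the primed libraries and the other 7 genes sit higher in the naive libraries, with the narrowest gap for BCL2L1 (111 against 100.1 CPM).

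BCL2, the founding anti-apoptotic gene of the family, was nearly silent in naive cells. The naive libraries AICAR 1, AICAR 2, CA-p38 and VPA held 29, 6, 9 and 7 counts, and primed EOS and primed CA-p38 held 250 and 184. In CPM these were 0.534, 0.121, 0.178 and 0.134 in the naive and 5.05 and 3.76 in the primed libraries. All naive values lay far below both primed values, and AICAR 1 stood above the other naive libraries: its exact 95% Clopper-Pearson interval, 0.357 to 0.767 CPM, did not meet those of AICAR 2 (0.0443 to 0.263), CA-p38 (0.0815 to 0.338) or VPA (0.0538 to 0.276). These intervals cover counting error only. The naive mean was 0.242 ± 0.196 CPM (SD, n = 4) and the primed mean 4.41 ± 0.912 CPM (SD, n = 2), or 18.2 times as much. The log2 fold change was -4.16 (SE 0.49, adjusted p = 1.15e-05), and -4.92 without AICAR 1. The gene lies on chromosome 18 (63123346 to 63320128, minus strand, GRCh38), and it passed the filter on low counts only through the primed libraries.

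BCL2L1, which encodes the anti-apoptotic BCL-XL, differed least. It stood at 112, 111, 111 and 120.3 CPM in AICAR 1, AICAR 2, CA-p38 and VPA and at 85.0 and 100.1 CPM in primed EOS and primed CA-p38. The naive libraries lay close together and just above primed CA-p38, and the 2 primed libraries were further apart than the naive ones. The means were 114 ± 4.49 CPM (SD, n = 4) and 92.5 ± 10.6 CPM (SD, n = 2), with a log2 fold change of 0.30 (SE 0.11, adjusted p = 0.0335). This call depended on the processing. It was lost with DESeq2 (0.24, adjusted p = 0.103), with median-ratio scaling (0.24, adjusted p = 0.0899) and without a filter on low counts (0.27, adjusted p = 0.0870). It was also lost without primed EOS (0.17, adjusted p = 0.318), without VPA (0.25, 0.0783), without CA-p38 (0.29, 0.0635) and without AICAR 1 (0.29, 0.0721). The gene lies on chromosome 20 (31664452 to 31723989, minus strand) and shares 1735 exonic bases with the antisense RNA ABALON, which was listed at 660 to 956 counts in naive and 663 to 678 counts in primed libraries. The sources do not say whether reads were counted by strand, so reads of the pair may not have been kept apart.

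MCL1, an anti-apoptotic gene with a short-lived protein, had the highest CPM of the 10 genes in every library. It reached 768, 685, 759 and 670.4 CPM in AICAR 1, AICAR 2, CA-p38 and VPA, and 286 and 344 CPM in primed EOS and primed CA-p38. Every naive library held at least 1.95 times the CPM of the higher primed library. The means were 720.5 ± 50.1 CPM (SD, n = 4) and 315 ± 41.5 CPM (SD, n = 2), a log2 fold change of 1.19 (SE 0.11, adjusted p = 1.22e-06). Relative to its own parental primed library the level was 2.2 times in CA-p38, 2.35 times in VPA and 2.40 and 2.69 times in the AICAR libraries. MCL1 lies on chromosome 1 (150560895 to 150579738, minus strand), where it shares 328 exonic bases on the same strand with ADAMTSL4-AS1 (56 to 81 naive counts, 7 in each primed library) and 43 bases on the opposite strand with ADAMTSL4.

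The effectors BAX and BAK1 were both higher in naive cells. BAX, which moves from the cytosol to mitochondria when activated, stood at 127, 118, 116 and 139 CPM in AICAR 1, AICAR 2, CA-p38 and VPA and at 48.6 and 44.8 CPM in primed EOS and primed CA-p38. The naive libraries lay well above the primed ones, which differed little from each other. The means were 125 ± 10.3 CPM (SD, n = 4) and 46.7 ± 2.64 CPM (SD, n = 2), a log2 fold change of 1.42 (SE 0.12, adjusted p = 4.37e-07). BAX lies on chromosome 19 (48954815 to 48961798, plus strand).

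BAK1 encodes BAK, which sits in the outer mitochondrial membrane before activation. Its levels were 114, 108, 100.2 and 100.1 CPM in AICAR 1, AICAR 2, CA-p38 and VPA, and 32.9 and 35.9 CPM in the primed libraries. No library of either state came near the other state. The means were 106 ± 6.62 CPM (SD, n = 4) and 34.4 ± 2.10 CPM (SD, n = 2), a log2 fold change of 1.62 (SE 0.12, adjusted p = 1.21e-07). BAK1 lies on chromosome 6 (33572547 to 33580293, minus strand). It has processed copies elsewhere, BAK1P1 and BAK1P2, which were listed at no more than 39 and 3 counts, beside 5062 to 6179 counts of BAK1 in the naive libraries.

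**Figure D2:**
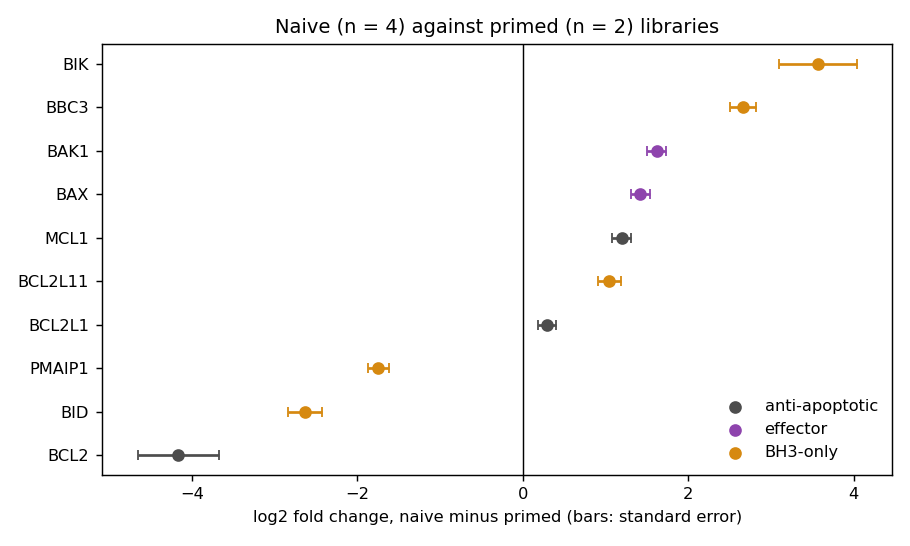
Log2 fold change of each gene (x axis, naive minus primed, 4 against 2 libraries), with standard errors as bars and colours for the role of the protein. The values run from -4.16 (BCL2) to 3.57 (BIK), both effectors lie right of 0, and the anti-apoptotic and BH3-only genes lie on both sides.

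The BH3-only genes moved in both directions, and BIK and BBC3 were the furthest up of the 10 genes. BIK, whose product acts mainly at the endoplasmic reticulum, had 270, 491, 241 and 312 counts in AICAR 1, AICAR 2, CA-p38 and VPA against only 39 and 14 counts in the primed EOS and primed CA-p38 libraries. In CPM these were 4.97, 9.89, 4.77 and 5.96, against 0.788 and 0.286. AICAR 2 stood above the other naive libraries, and the primed libraries differed from each other by a factor of 2.75. The means were 6.40 ± 2.38 CPM (SD, n = 4) and 0.537 ± 0.355 CPM (SD, n = 2). The log2 fold change was 3.57 (SE 0.47, adjusted p = 3.05e-05), and it depended on the primed library: 4.46 without primed EOS and 3.02 without primed CA-p38. BIK lies on chromosome 22 (43110750 to 43129712, plus strand).

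BBC3 encodes PUMA, a p53-induced protein that binds all the anti-apoptotic members of this set. It was at 47.8, 39.0, 40.1 and 43.3 CPM in AICAR 1, AICAR 2, CA-p38 and VPA and at 7.01 and 6.40 CPM in the primed libraries. Each group was narrow and the distance between them wide. The means were 42.6 ± 3.96 CPM (SD, n = 4) and 6.71 ± 0.433 CPM (SD, n = 2), a log2 fold change of 2.67 (SE 0.16, adjusted p = 1.62e-08). Over its own parental library BBC3 was 5.56 to 6.82 times as high. The gene lies on chromosome 19 (47220822 to 47232766, minus strand).

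BCL2L11, the gene of the BH3-only protein BIM, was at 32.0, 29.6, 32.7 and 34.8 CPM in AICAR 1, AICAR 2, CA-p38 and VPA, and at 15.1 and 16.2 CPM in the primed libraries. The naive libraries were again close together and clear of the primed ones. The means were 32.2 ± 2.14 CPM (SD, n = 4) and 15.6 ± 0.806 CPM (SD, n = 2), a log2 fold change of 1.05 (SE 0.14, adjusted p = 3.13e-05). BCL2L11 lies on chromosome 2 (111119378 to 111168444, plus strand) and shares 727 exonic bases with MIR4435-2HG on the opposite strand, which went the other way, with 503 to 609 counts in naive and 906 to 912 in primed libraries.

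PMAIP1 and BID were the BH3-only genes that were lower in naive cells. PMAIP1 encodes NOXA, a selective partner of MCL1. It was at 44.7, 53.2, 52.1 and 40.4 CPM in AICAR 1, AICAR 2, CA-p38 and VPA and at 173 and 146 CPM in primed EOS and primed CA-p38. The lowest primed library held 2.74 times the CPM of the highest naive library. The means were 47.6 ± 6.14 CPM (SD, n = 4) and 159.7 ± 19.4 CPM (SD, n = 2), a log2 fold change of -1.75 (SE 0.13, adjusted p = 1.42e-07). MCL1 and PMAIP1, whose products bind each other, thus differed between the states in opposite directions. PMAIP1 lies on chromosome 18 (59899996 to 59904305, plus strand).

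BID encodes the protein that caspase-8 cleaves to link death receptors to mitochondria. Its levels were 4.99, 4.49, 5.54 and 7.93 CPM in AICAR 1, AICAR 2, CA-p38 and VPA, and 32.7 and 38.6 CPM in the primed libraries. VPA was the highest naive library but still far below both primed libraries. The means were 5.74 ± 1.52 CPM (SD, n = 4) and 35.7 ± 4.13 CPM (SD, n = 2), a log2 fold change of -2.64 (SE 0.21, adjusted p = 2.50e-07). BID lies on chromosome 22 (17734138 to 17774770, minus strand).

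BAX and PMAIP1 differed in opposite directions, and the sequences before their start sites are shown to set them side by side. Both are the 250 bases upstream of a start site in RefSeq (GRCh38.p14, plus strand), chr19:48954625-48954874 for BAX and chr18:59899746-59899995 for PMAIP1. Capitals mark a different motif in each: CACGTG, an E-box that reads the same on both strands, in BAX, and the GC box GGGCGG on either strand in PMAIP1. GC boxes of the BAX stretch are not marked.
BAX: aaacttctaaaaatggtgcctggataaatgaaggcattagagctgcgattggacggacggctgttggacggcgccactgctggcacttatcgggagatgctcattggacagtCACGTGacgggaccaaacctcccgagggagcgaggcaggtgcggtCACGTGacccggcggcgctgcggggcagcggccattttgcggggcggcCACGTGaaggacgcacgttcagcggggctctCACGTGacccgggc
PMAIP1: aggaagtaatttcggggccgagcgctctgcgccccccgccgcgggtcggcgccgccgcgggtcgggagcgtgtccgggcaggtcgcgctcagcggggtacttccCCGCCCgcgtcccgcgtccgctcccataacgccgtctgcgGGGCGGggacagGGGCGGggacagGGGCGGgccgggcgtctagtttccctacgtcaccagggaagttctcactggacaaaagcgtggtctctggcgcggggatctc
The BAX stretch holds 4 E-boxes and 62.8% G and C, and the PMAIP1 stretch 4 GC boxes and 72.8% G and C. Counted in windows of 300 bases, BAX held 2 GC boxes as well and PMAIP1 held 0 E-boxes. Among 35116 RefSeq windows of 300 bases (250 before and 50 after a start, with some genes holding several overlapping windows), 7.26% hold at least 1 E-box and 5 windows hold 4 or more. The GC box is common: 45% of windows hold it and 9.06% hold 4 or more. RefSeq windows were matched for 8 of the 10 genes, all but BIK and MCL1. Of genes higher in naive cells, BCL2L11 held 3 GC boxes, BAK1 2, BBC3 0 and BCL2L1 0 or 1, by window. Of those lower, BCL2 held 0 and BID 0 to 4. E-boxes numbered 1 in BBC3, 0 or 1 in BID and 0 in BCL2L11, BAK1, BCL2L1 and BCL2. Other motifs were counted too. CCAAT boxes, in 34.6% of all windows, numbered 2 in BAX and BAK1, 1 in BBC3 and BCL2L11 and 0 in PMAIP1, BCL2, BID and BCL2L1. TATA boxes numbered 0 or 2 in BCL2L1, by window, and 0 in the other genes. The half-site of p53, in 6.63% of all windows, numbered 1 in BAK1 and 0 in the other genes, with no search outside these windows. A link of motif to direction was not tested. Such matches describe letters only, and no binding was measured.

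Genes can be compared with each other once the CPM is divided by the length of the reference transcript in kilobases. On this scale (CPM per kb) MCL1 led in naive cells at 182 ± 12.7, followed by BAX at 157 ± 13.0, BAK1 at 48.6 ± 3.05 and BCL2L1 at 44.1 ± 1.74 (SD, n = 4). MCL1 and BAX were not well separated, nor were BAK1 and BCL2L1: in VPA the level of BAX (175 CPM per kb) exceeded that of MCL1 (169.7), and BCL2L1 (46.7) that of BAK1 (46.1). Both depended on the transcript taken for the length. With the longest transcript of each gene BAX, whose longest transcript has 1358 bases and whose reference has 795, stood at 92.1 ± 7.60 CPM per kb in naive cells, and in VPA it was at 102 and MCL1 at 147, BCL2L1 at 36.9 and BAK1 at 45.3. PMAIP1 (25.1 ± 3.23) and BBC3 (23.1 ± 2.14) overlapped, as did BIK (6.73 ± 2.51) and BCL2L11 (6.33 ± 0.420). BID (2.64 ± 0.700) and BCL2 (0.0351 ± 0.0285) were last.

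In primed cells the order by CPM per kb was another. PMAIP1 (84.1 ± 10.2) and MCL1 (79.7 ± 10.5, SD, n = 2) came first, with PMAIP1 ahead in primed EOS and MCL1 ahead in primed CA-p38. BAX (58.7 ± 3.33) and BCL2L1 (35.9 ± 4.14) followed, then BID (16.4 ± 1.90) and BAK1 (15.9 ± 0.967), whose ranges overlapped. This order also depended on the transcript taken for the length. With the longest transcripts PMAIP1 (76.9) was ahead of MCL1 (75.7) in primed CA-p38 too, and the primed mean of BAK1 (15.6) was above that of BID (14.3). BBC3 (3.63 ± 0.235) and BCL2L11 (3.06 ± 0.158) came next, and BCL2 (0.640 ± 0.133) and BIK (0.565 ± 0.373) overlapped at the bottom.

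**Figure D3:**
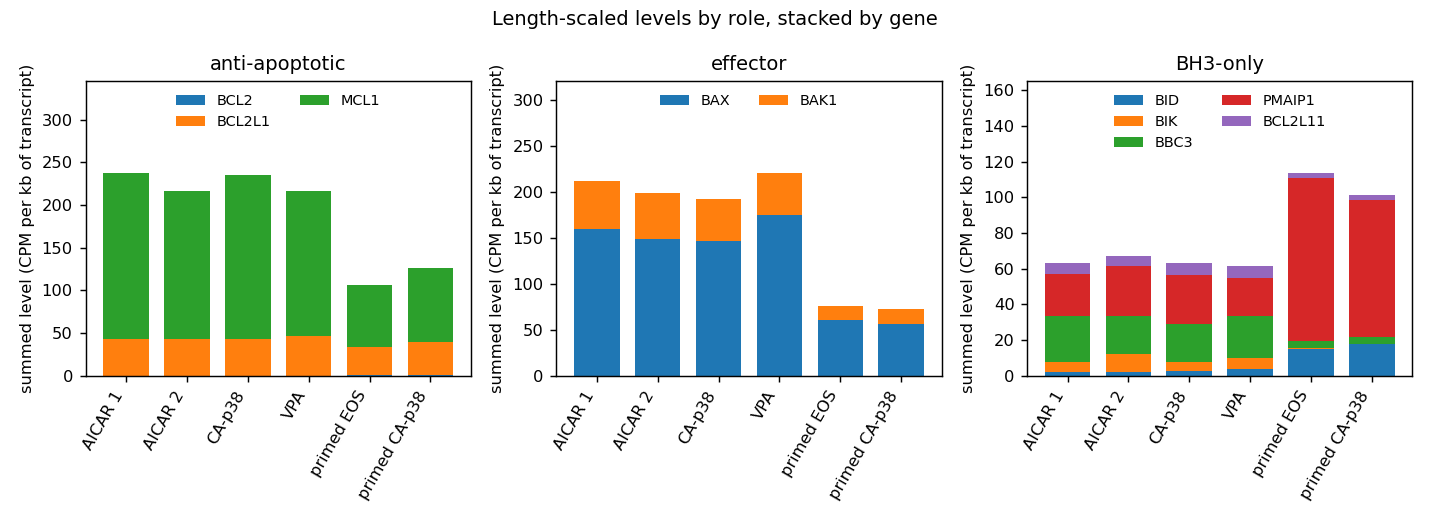
Length-scaled levels of the 10 genes (y axis, CPM per kb of transcript, from 0) summed by role and stacked by gene, for each of the 6 libraries. The anti-apoptotic and effector stacks are taller in the 4 naive libraries, the BH3-only stack is taller in the 2 primed libraries, and PMAIP1 fills most of the primed BH3-only stack (77.9% on average).

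Summed by role, transcripts of anti-apoptotic genes stood at 227 ± 11.7 CPM per kb in naive (SD, n = 4) and 116 ± 14.5 in primed cells (SD, n = 2), a ratio of 1.95. Effector transcripts, here of BAX and BAK1 only, stood at 206 ± 12.8 and 74.6 ± 2.36 CPM per kb, a ratio of 2.76. Transcripts of the 5 BH3-only members were the reverse, at 63.8 ± 2.55 in naive and 108 ± 8.77 CPM per kb in primed cells. The sum was 1.69 times as high in primed cells. PMAIP1 weighed most in this, at 25.1 in naive and 84.1 CPM per kb in primed cells. BID was lower in naive cells too, and BBC3, BIK and BCL2L11 were higher. The further BH3-only genes BAD, HRK and BMF are not in this sum, and the sum with them was not computed. Mean levels in naive and primed libraries were 17.8 and 17.9 CPM for BAD, 47.6 and 1.90 CPM for HRK and 1.89 and 11.3 CPM for BMF. The effector sum came to 0.912 ± 0.0843 of the anti-apoptotic sum in naive and to 0.648 ± 0.101 in primed libraries. The range was 0.818 to 1.02 against 0.576 to 0.719. BOK, an effector-like relative described below, is left out of the effector sum and went the other way. It stood at 14.8 to 21.7 CPM in naive libraries and at 97.5 and 90.9 CPM in the primed ones. The ratio with BOK added was not computed, so the difference in ratio holds for BAX and BAK1 only. With the longest transcripts the effector sum was 139.8 and 49.9 CPM per kb, and the ratio 0.725 and 0.513. These sums are descriptions of transcripts, with no test, and say nothing of protein.

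The make-up of the sums differed as well. MCL1 took 80.4% ± 1.56 of the anti-apoptotic sum in naive (SD, n = 4) and 68.5% ± 0.488 in primed cells (SD, n = 2), and BCL2L1 took 19.5% ± 1.56 and 30.9% ± 0.304. BCL2 took 0.0152% ± 0.0117 and 0.562% ± 0.184. Among transcripts of the 5 BH3-only members, the share of PMAIP1 was 39.2% ± 4.04 in naive and 77.9% ± 3.14 in primed cells. BBC3 went from 3.37% ± 0.0569 in primed to 36.2% ± 4.22 in naive cells, so that PMAIP1 and BBC3 were of similar weight in the naive state. BIK held 10.5% ± 3.46 in naive and 0.512% ± 0.305 in primed cells, BCL2L11 9.94% ± 1.03 and 2.86% ± 0.379, and BID 4.16% ± 1.24 and 15.3% ± 3.01.

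No difference between AICAR, CA-p38 and VPA was called for any of the 10 genes. An edgeR quasi-likelihood F test across the 3 inducers gave adjusted p-values from 0.768 to 1, and 0% of all genes tested passed it. At an unadjusted p under 0.05 it marked 1570 genes, or 5.93%, and BID alone of the 10 (unadjusted p = 0.0248). Under every alternative tried for this test the number of the 10 genes called was also 0, with a lowest adjusted p of 0.462. The number over all genes was less stable: 15 with median-ratio factors, 314 without a filter on low counts, 2 without CA-p38, 27 without AICAR 1, 347 without primed EOS and 351 without primed CA-p38. CA-p38 and VPA have 1 library each here, and their spread was assumed to be like that of the AICAR and primed pairs, so differences of moderate size could be missed. The highest naive library exceeded the lowest by a factor of 1.08 for BCL2L1, 1.14 for BAK1, 1.1 for MCL1, 1.18 for BCL2L11, 1.20 for BAX, 1.23 for BBC3, 1.32 for PMAIP1, 1.77 for BID, 2.07 for BIK and 4.42 for BCL2. The spread was thus widest in the 3 genes with the fewest naive counts.

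Of 15 other genes of the extended BCL2 family, 13 passed the filter on low counts, 3 were higher in naive cells and 6 lower, and 4 did not pass the test, with a median log2 fold change of -0.01, where 53.1% of all genes tested were called. HRK, a BH3-only gene known from neurons, was far higher: 44.1, 55.3, 43.3 and 47.7 CPM in AICAR 1, AICAR 2, CA-p38 and VPA against 2.06 and 1.74 CPM in the primed libraries. Its log2 fold change of 4.65 (SE 0.19, adjusted p = 7.08e-10) exceeded that of BIK. BCL2L15 (1.34, adjusted p = 0.00264) and BNIP2 (0.36, adjusted p = 0.0173) were the other higher genes, and BNIP2 was not called without primed EOS (0.24, adjusted p = 0.205).

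The lower genes included BOK, an effector-like relative of BAX and BAK1 that differed in the direction opposite to both. BOK stood at 14.8, 14.9, 15.1 and 21.7 CPM in AICAR 1, AICAR 2, CA-p38 and VPA against 97.5 and 90.9 CPM in the primed libraries (log2 fold change -2.50, SE 0.16, adjusted p = 3.00e-08). BMF, a BH3-only gene, differed by -2.59 (adjusted p = 4.85e-06), the anti-apoptotic BCL2L2 by -0.81 (adjusted p = 0.00119), BCL2L12 by -0.65 and BCL2L13 by -0.32 (adjusted p = 0.0339). The call of BCL2L13 was lost with the parental line as a replicate block (adjusted p = 0.0506), with the AICAR libraries summed (0.0644), with library totals (0.116) and without AICAR 1 (0.0713), AICAR 2 (0.0743), primed EOS (0.201) or primed CA-p38 (0.0572). BNIP3L and BNIP3, receptors for the removal of mitochondria, were uneven between the primed libraries. BNIP3L was at 85.8 CPM in primed EOS, 41.9 CPM in primed CA-p38 and 17.8 to 22.4 CPM in naive libraries (-1.67, adjusted p = 2.51e-05). BNIP3 was at 222 and 47 CPM in the primed libraries, on both sides of the naive range of 128 to 216 CPM, and did not pass the test (0.31, adjusted p = 0.556). Without primed EOS it was higher in naive cells (1.81, adjusted p = 9.00e-05). BAD (-0.01), BCL2L14 (0.11) and BNIP1 (0.37) did not pass it either, and BCL2A1 and BCL2L10 were not tested for want of counts.

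**Figure D4:**
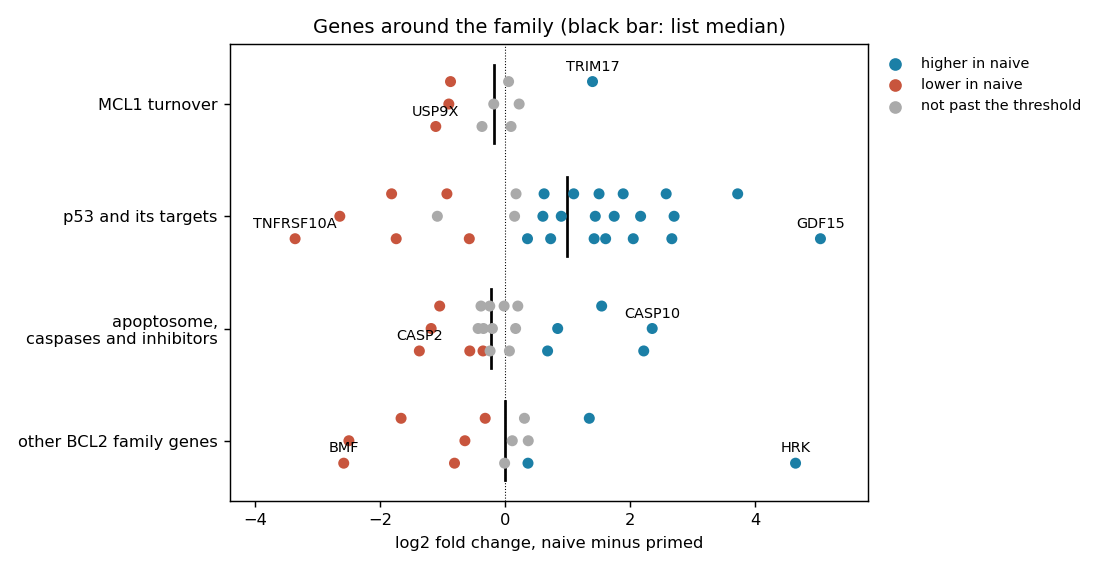
Log2 fold changes (x axis, naive minus primed) of genes around the family in 4 lists, each point 1 tested gene, coloured by its call, with the list median as a black bar and the lowest and highest gene of each list named. The p53 list lies mostly right of 0 (median 1.0), and the medians of the other lists lie between -0.23 and -0.01.

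BBC3, PMAIP1 and BAX are known targets of p53, the transcription factor of the DNA damage response. In a list of genes of the p53 pathway, 19 of 28 genes were higher in naive cells, 6 were lower and 3 did not pass the test, with a median log2 fold change of 1.0. Without the members BBC3, PMAIP1 and BAX these were 17, 5 and 3 of 25 genes, with a median of 0.90, beside 26% higher and 27% lower over all genes tested. GDF15, a secreted stress cytokine, was the highest, with 45.8 to 52.3 CPM in naive and 1.1 to 1.9 CPM in primed libraries (5.04, adjusted p = 1.25e-09), followed by PHLDA3 (3.72) and the cell cycle inhibitor CDKN1A (2.70, adjusted p = 4.25e-08). BBC3 (2.67) and BAX (1.42) lay on this side. The furthest lower was the death receptor gene TNFRSF10A (-3.36, adjusted p = 2.76e-06), and PMAIP1 (-1.75) lay on that side.

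Downstream of mitochondria, 20 genes of the apoptosome, caspases and their inhibitors were listed. Of these 5 were higher, 5 lower and 10 did not pass the test, and the median log2 fold change was -0.23. This share of calls lay near the 53.1% of all genes tested. CASP8, the protease that cleaves the product of BID, was at 35 to 40.7 CPM in naive and 6.63 to 9.43 CPM in primed libraries (2.22, adjusted p = 2.81e-07), so it and BID differed in opposite directions. CASP10 (2.35) and ENDOG (1.54) were also higher, together with XIAP (0.84) and VDAC2 (0.68), which are named after their values were seen. Among the lower genes were CASP2 (-1.38, adjusted p = 2.04e-05) and BIRC5 (-1.05, adjusted p = 3.71e-06). CASP6 (-0.36, adjusted p = 0.0422), likewise named after its values were seen, passed the test narrowly. Its call was lost with the replicate block (adjusted p = 0.0510) and without either primed library (0.159 without primed EOS, 0.123 without primed CA-p38). The count of lower genes was 3 without primed EOS and 3 without primed CA-p38.

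The protein of MCL1 is set by ubiquitin ligases and a deubiquitinase, and 9 such genes were counted. TRIM17, a ligase gene, was higher in naive cells (1.40, adjusted p = 8.99e-04), at 4.91 to 8.61 CPM against 2.43 to 2.66 CPM. USP9X, the deubiquitinase that spares MCL1, was at 182 to 200.3 CPM in naive and 416 to 418 CPM in primed libraries (-1.11, adjusted p = 2.81e-07), opposite to MCL1 itself. CUL5 (-0.90) and RNF7 (-0.88), which act in 1 ligase complex, were lower as well. In all, 1 of the 9 genes was higher, 3 were lower and 5 did not pass the test, where 53.1% of all genes tested were called. The median log2 fold change was -0.18 over the list. Without VPA, 2 genes of the list were higher, the second being HUWE1 (0.27, adjusted p = 0.0409), named after its values were seen.

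BCL2L1 lies in 20q11.21, a segment that human pluripotent stem cells are known to gain in culture. The study reports abnormal karyotypes in some of its naive cultures, names no segment and does not say whether the sequenced cells had them. Copy number was not measured, and the expression of the neighbours of BCL2L1 was therefore listed. Of 17 neighbours 15 were tested, 3 of them were higher in naive cells, 7 lower, and 5 did not pass the test, with a median log2 fold change of -0.41. DUSP15 (1.37) and ID1 (0.74) were among the higher genes, and XKR7 (-2.53), PLAGL2 (-1.60) and ASXL1 (-1.51) were furthest lower. Of the protein-coding genes within 1 Mb of BCL2L1, 28 are named in the count table and 21 were tested, 6 were higher and 9 lower, with a median of -0.22. Over all genes tested 53.1% were called, 26% higher and 27% lower in naive cells. The neighbours of BCL2L1, like all genes tested, thus went both ways, and whether the segment was gained was not tested.

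**Figure D5:**
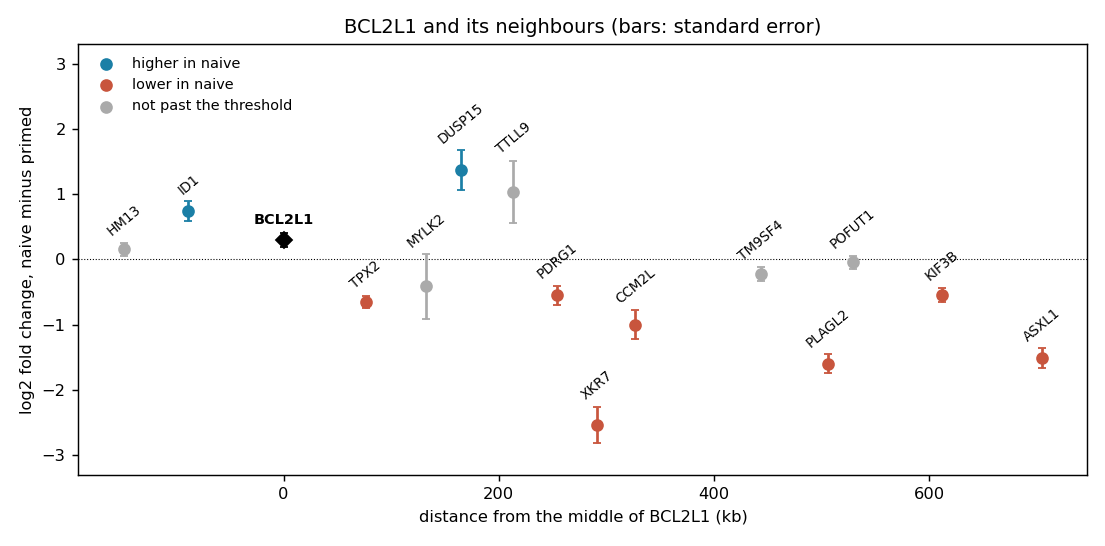
Log2 fold change (y axis, naive minus primed, bars are standard errors) of 14 of the 15 tested neighbours and of BCL2L1 (black diamond, 0.30) against the distance of each gene's middle from that of BCL2L1 (x axis, kb). Blue, red and grey mark genes higher in naive cells, lower in naive cells and not past the threshold, and the colours are mixed along the segment.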

How the data were processed

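Bulk RNA-seq counts from 4 naive and 2 primed libraries were used. The authors trimmed adapters (cutadapt 1.15, Trim Galore 0.4.4), mapped reads with Bowtie2 to Ensembl GRCh38 cDNA and noncoding RNA, kept alignments of mapping quality 1 or more, and deposited whole-number counts per gene identifier, without normalization. Of the table, 23 columns that belong to other studies were left aside. Identifiers sharing a name were summed (61196 identifiers, 48183 names), which affected none of the 10 genes, and 26 spike-in rows (at most 1.9e-06% of counts) were left out.

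The naive libraries were tested against the primed ones in edgeR 4.0.16 (R 4.3.3; glmQLFit, glmQLFTest, TMM, filterByExpr by state), without covariates, with Benjamini-Hochberg adjustment over 26497 genes and a threshold of 0.05. The common dispersion was 0.0563. Inducers were compared by an F test in the same table. The members and lists were chosen with earlier results of these data known. The 10 genes, the tested genes of the extended family, and the 3 highest and 3 lowest called genes of each further list are named, apart from some that are not reported here. Positions and lengths (MANE Select transcripts) come from GENCODE release 44, promoters from RefSeq.

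The sources do not say that libraries of a state come from separate cultures, so p-values measure the spread between these libraries, which may be partly technical. The AICAR libraries differed beyond sampling noise (chi-square 21.05 per gene), which does not tell whether they are independent. They were counted as 2, and with them summed 7 of the 10 genes were higher and 3 lower, as in the main fit. With 4 against 2 libraries an exact permutation test could not go below p = 0.0667, so none is given. DESeq2 1.42.0, limma-voom (limma 3.58.1), other scalings and filters, the parental line as a replicate block, summed AICAR libraries and each library left out in turn were tried.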

Additional observations from a re-analysis of the deposited data

Results flagged for a closer look

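In 10 sets of 4 naive levels, 1 set per gene, the gap of the most extreme library to its nearest neighbour was compared with the range of the set, for which chance alone passes Dixon's 95% critical value in about 1 of 20 sets. BCL2 passed it with a ratio of 0.861, since AICAR 1 stood at 0.534 CPM above the other naive libraries. BCL2L1 passed it with a ratio of 0.864, since VPA stood at 120.3 CPM above the others, although the highest naive level was only 1.08 times the lowest.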

How the results depend on the processing

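The direction of each of the 10 genes held under every alternative tried, and all calls but that of BCL2L1 held wherever the gene was tested. BCL2 could not be tested where 10 counts in every library were required. BCL2L1 was past the threshold in 8 of 15 alternatives: its log2 fold change was 0.24 with DESeq2 and with median-ratio factors and 0.27 without a filter, all weaker, and 0.17 to 0.43 with 1 library left out. Leaving out 1 library kept 6 to 7 of the 10 genes higher and 3 lower. With the parental line as a replicate block 7 genes were higher and 3 lower, and the block changed no call of the 10 genes, while the count of lower genes in the extended family was 5 instead of 6.

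The count of lower genes among the apoptosome, caspases and inhibitors was 3 instead of 5 with 10 counts in every library, with library totals and with the replicate block, and 3 to 5 with 1 library left out (3 without primed EOS and 3 without primed CA-p38). The count of higher genes for MCL1 turnover was 2 instead of 1 with library totals, and 1 to 2 with 1 library left out (2 without VPA). With the longest transcript as length, added after seeing the data, the anti-apoptotic sum was 193 CPM per kb in naive and 98.2 in primed cells, the effector sum was 139.8 and 49.9, and the effector to anti-apoptotic ratio 0.725 and 0.513. In primed cells the share of BCL2L1 was then 28.9%, that of MCL1 70.4% and that of BBC3 among the BH3-only members 3.44%. With library totals the effector sum in primed cells was 71.3 CPM per kb. The causes were not tested. Depth limits BCL2 most, with 6 to 29 counts in naive libraries.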
